A study of Mus musculus with 3 samples.

Results

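The regions described here were stretches of accessible chromatin at the promoters of single protein-coding genes in mouse cells modelling the caudal epiblast. The assay was ATAC-seq, which reads out exposed DNA from where a transposase inserts sequencing adapters, and each of 3 samples had a list of peaks. The lists were merged on the 16 autosomes other than 6, 8 and 11, and a merged region was kept if it met the 1 kb on either side of a protein-coding transcript start (GENCODE M21, mm10) of exactly 1 gene. This gave 14454 promoter regions of 144115 merged regions, which belonged to 11414 of 16942 coding genes. A further 1162 regions met starts of 2 or more genes and 128499 met none. The other side of the count was taken from the starts themselves. Windows of 1 kb around the starts of a gene were joined where they overlapped, and the 21705 such start clusters that met no other coding gene were scored as covered if a peak reached them.

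All samples came from HM1 mouse embryonic stem (ES) cells, a line of strain 129, differentiated for 72 h in medium with 10 ng/ml bFGF and 5 µM LGK974, an inhibitor of WNT secretion, and with the WNT activator CHIR99021 from day 2. Each group was 1 sample of 50000 cells, so no difference below has a replicate check and none was tested. The CEpiLC (caudal epiblast-like cell) group was the wild-type line. For SOX2-ON and SOX2-OFF a TetON line was used, picked as a clone after gene editing, in which endogenous Sox2 was ablated, a doxycycline-inducible Sox2 transgene sat in the HPRT locus and rtTA was driven from Rosa26. The ES culture of both had 1 µg/ml doxycycline, and no doxycycline was stated for CEpiLC. During differentiation doxycycline was kept on in SOX2-ON and withdrawn in SOX2-OFF, so these samples differed in doxycycline within 1 line. In comparisons with CEpiLC, the genotype, the line and the doxycycline of the ES culture cannot be told apart.

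A promoter is the stretch around a transcription start where RNA polymerase and its general factors assemble, and its nucleosomes are depleted when it is available for use. Mammalian promoters fall into broad kinds. Many, above all those of genes that every cell uses and of developmental regulators, lie in CpG islands, where CpG dinucleotides escaped the loss that methylation causes elsewhere in the genome. Others are CpG-poor, often serve a single tissue and may carry a TATA box, the sequence bound by the TATA-binding protein. Some germline genes are an exception, with CpG-rich promoters that are silenced by methylation in most cells.

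The difference in base content is visible in the 250 bases before the start of 4 genes that stood for the range of outcomes in these data. Cdx2, a caudal homeobox regulator, and Ddx4, a germ-cell RNA helicase, had a peak in all samples over CpG-rich starts. Msgn1, a paraxial mesoderm regulator, had a peak in all samples at a CpG-poor start, and Alb, the liver serum albumin gene, had none at a start of intermediate CpG content and low GC. The sequences were taken from RefSeq (GRCm38.p6, the same build as mm10) and are written 5′ to 3′ on the strand of the gene, with each CG in capitals.
Cdx2, chr5:147307250-147307499, minus strand: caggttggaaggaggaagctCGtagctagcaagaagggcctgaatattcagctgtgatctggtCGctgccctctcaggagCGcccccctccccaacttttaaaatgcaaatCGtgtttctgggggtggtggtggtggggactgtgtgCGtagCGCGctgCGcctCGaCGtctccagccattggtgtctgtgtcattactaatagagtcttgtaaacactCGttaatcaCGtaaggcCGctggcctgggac
Ddx4, chr13:112652311-112652560, minus strand: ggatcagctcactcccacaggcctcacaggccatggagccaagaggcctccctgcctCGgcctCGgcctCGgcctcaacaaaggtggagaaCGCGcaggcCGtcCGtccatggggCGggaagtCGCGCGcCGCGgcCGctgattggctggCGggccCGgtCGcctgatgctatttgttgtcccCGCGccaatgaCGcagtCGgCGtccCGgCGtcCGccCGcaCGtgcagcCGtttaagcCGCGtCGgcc
Msgn1, chr12:11208949-11209198, minus strand: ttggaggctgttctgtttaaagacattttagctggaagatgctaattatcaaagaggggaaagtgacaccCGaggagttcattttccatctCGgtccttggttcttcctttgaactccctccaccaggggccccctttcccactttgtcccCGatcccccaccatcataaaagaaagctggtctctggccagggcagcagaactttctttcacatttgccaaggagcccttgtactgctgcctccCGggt
Alb, chr5:90460620-90460869, plus strand: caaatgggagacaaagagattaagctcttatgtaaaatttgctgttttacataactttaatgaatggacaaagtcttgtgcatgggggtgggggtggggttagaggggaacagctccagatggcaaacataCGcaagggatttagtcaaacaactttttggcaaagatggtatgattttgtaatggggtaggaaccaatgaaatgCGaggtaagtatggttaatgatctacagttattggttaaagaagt
The stretch held 31 CG in Ddx4, 13 in Cdx2, 4 in Msgn1 and 2 in Alb, and its GC content was 70.4%, 55.2%, 50.8% and 39.2% in the same order.

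Most single-gene promoter regions were shared by all samples, unlike the rest of the accessible genome. Of the 14454 regions, 11412 (79.0%, Wilson 95% interval 78.3 to 79.6) had a peak in all 3 samples, against 31.2% of all merged regions and 25.2% of the regions that met no coding start. Intervals given for shares cover counting error only, since regions are not replicates. Regions at starts of 2 or more genes were shared more often still, at 97.7%. The remaining single-gene promoter regions were spread thinly. SOX2-ON only held 599 promoter regions (4.14%, background 16.4%), SOX2-OFF only 503 (3.48%, background 13.4%) and CEpiLC only 924 (6.39%, background 20.0%). The pairs held 300 for SOX2-ON and SOX2-OFF (2.08%, background 6.47%), 478 for SOX2-OFF and CEpiLC (3.31%, background 8.66%) and 238 for SOX2-ON and CEpiLC (1.65%, background 3.88%). Every partial class was thus below the share that all merged regions gave.

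**Figure D1:**
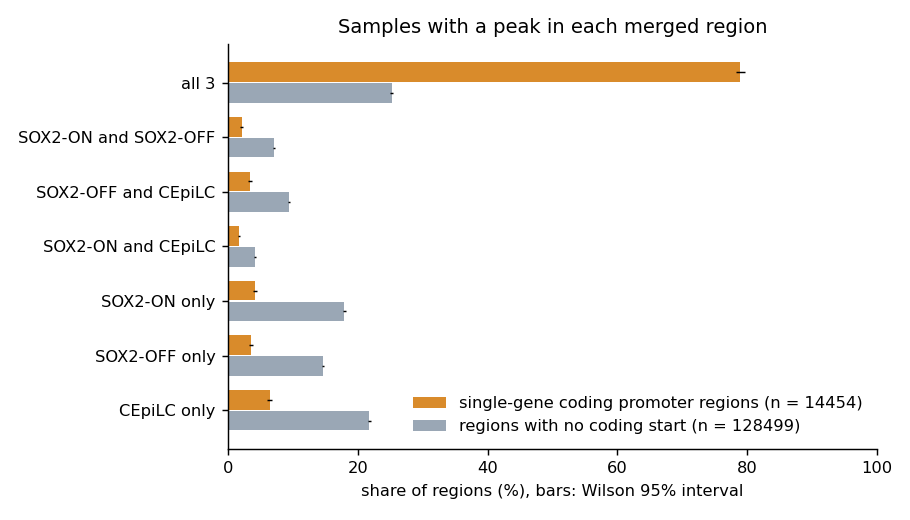
The bars give the share of merged regions (%, x axis) with a peak in each combination of the 3 samples, for single-gene coding promoter regions (orange) and for regions that met no coding start (grey), with Wilson 95% intervals. The orange bar reaches 79.0% for all 3 samples, and every other orange bar is shorter than the grey bar beside it.

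Sharing stopped within a short distance of the start itself. Of 11904 regions that lay over a start base, 90.0% (89.5 to 90.6) were shared by all 3 samples. Among promoter regions that came only within 1 to 500 bp of a start, 28.2% of 1519 were shared, and at 501 to 1000 bp 25.7% of 1031. Just outside the 1 kb limit, regions at 1001 to 1500 bp were shared in 29.0% of 1455 cases, so regions on either side of that limit looked alike. Regions over a start were also wide, with a median of 1540 bp against 542 and 564 bp in the 2 flanking bins inside the limit. The part of width in this difference was not tested.

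Promoter regions took most of the top of each list. Ranked by the −log10 p that the peak caller gave, peaks meeting promoter regions made up 74.9%, 73.0% and 72.4% of the strongest 1000 peaks in SOX2-ON, SOX2-OFF and CEpiLC, and 4.46%, 3.71% and 4.01% of the last 20000. They held 24.4%, 23.0% and 25.8% of all bases under peaks. The value used for strength is the deposited fold enrichment, the ratio of reads in a peak to the caller's local background in the same library. Its median over promoter regions shared by all samples was 3.76, 3.08 and 2.72 in SOX2-ON, SOX2-OFF and CEpiLC. These levels rise with the depth and signal of a library, and read totals were not given, so their order across samples is not read as a difference in accessibility.

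Desi2 was among the 5 strongest promoter regions of every sample and Nr1d2 among those of SOX2-ON and SOX2-OFF. Desi2 (chr1:178187127-178188560), which encodes a peptidase that removes SUMO or ubiquitin, had a fold enrichment of 6.78, 4.90 and 5.37 in SOX2-ON, SOX2-OFF and CEpiLC, and its peak ranked 17, 16 and 23. Nr1d2, which encodes the circadian repressor REV-ERBβ, had 5.75, 4.45 and 4.05 and ranked 20, 21 and 46. Both genes were near the top of every list. Mbd3, a subunit of the NuRD chromatin remodelling complex, ranked 21 and 52 in SOX2-ON and SOX2-OFF and 628 in CEpiLC. Btbd9 and Tsga10 completed the first 5 in SOX2-ON, and Fam160a2 was among the first 5 in SOX2-OFF. The remaining leaders, named for CEpiLC or SOX2-OFF, were Gm2237, Gm3667, Gm10720 and Fcgr3. The start windows of Gm2237 and Gm3667 consisted by 74.5% and 68.1% of 31-base words that occur elsewhere in the genome, and at least 50% did so in 15 of 64 named genes, whose values are uncertain for that reason. For Desi2 it was 38.3%.

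Whether a start was covered followed its CpG content closely. CpG content was measured in the 500 bp around the start as the ratio of observed to expected CpG, and starts were called CpG-rich above 0.6 with over 50% GC, and CpG-poor below 0.4. Of 7366 CpG-rich start clusters, 7260 (98.6%, 98.3 to 98.8) were covered in all samples and 63 in none. Of 11518 CpG-poor clusters, 2051 (17.8%, 17.1 to 18.5) were covered in all and 7210 in none. Intermediate clusters lay between, with 64.6% of 2821 covered in all. In total 7940 clusters (36.6%, 35.9 to 37.2) had no peak in any sample. A missing peak means that accessibility was not detectable at the depth of that library and does not show closed chromatin.

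The relation was graded rather than a step between kinds. Among principal starts, the start of the best-supported transcript of each gene, the share covered in all samples was 7.30% of 1588 starts with a ratio under 0.1, 28.9% of 1437 between 0.2 and 0.3, 71.2% of 810 between 0.4 and 0.5, 95.8% of 1212 between 0.6 and 0.7, and 100% of 158 at 1.1 and above. The samples differed mainly at the low end. Below 0.1, 11.3%, 13.1% and 15.2% of starts had a peak in SOX2-ON, SOX2-OFF and CEpiLC, an order that follows the number of peaks in the lists (85388, 86563 and 95025 on these chromosomes). Whether list length sets that order was not tested.

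**Figure D2:**
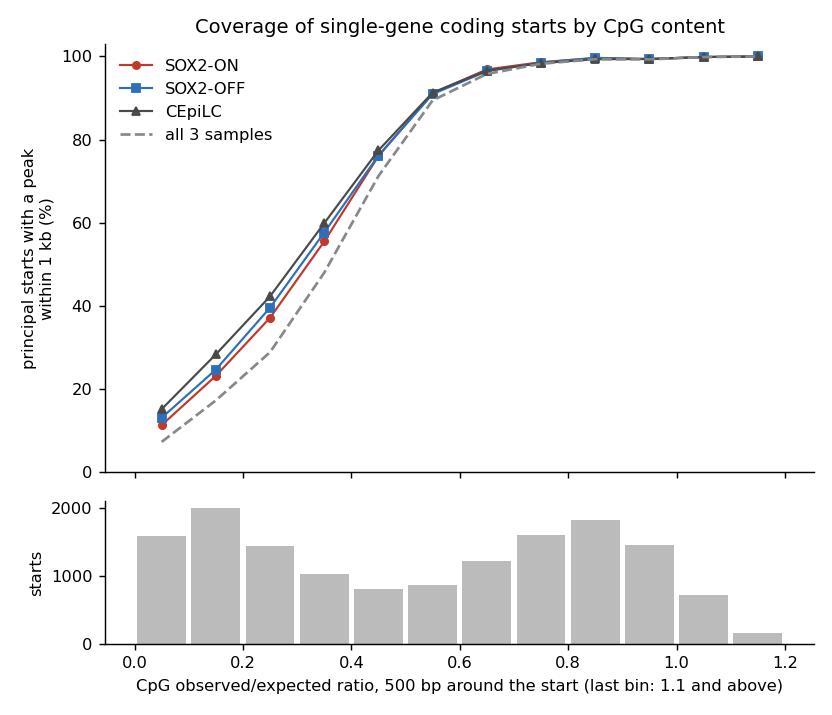
The upper panel plots the share of principal starts with a peak within 1 kb (%, y axis) against the observed to expected CpG ratio (x axis, bins of 0.1) for each sample and for all 3 together, and the lower panel gives the number of starts in each bin. Coverage climbs from 7.30% to 100% for all 3 samples together, and the sample lines separate mainly at low CpG ratios.

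Peaks at CpG-rich and CpG-poor starts also had different shapes. Over CpG-rich principal starts with a peak, the strongest peak lay over the start base in 99.1%, 99.4% and 99.0% of cases in SOX2-ON, SOX2-OFF and CEpiLC. Its midpoint was a median of 86, 96 and 116 bp downstream of the start, and it reached 734, 800 and 800 bp into the gene against 572, 608 and 570 bp before it. At CpG-poor starts the peak lay over the start in only 59.5%, 63.4% and 55.9% of cases, and its median fold enrichment was 1.90, 1.81 and 1.81 against 4.43, 3.45 and 2.99 at CpG-rich starts. CpG-poor starts with strong peaks meeting their start cluster in all samples did exist. Higd1a, a hypoxia-induced mitochondrial gene, had a ratio of 0.28 and fold enrichments of 5.54, 4.69 and 4.24, and Fdft1, the squalene synthase gene of sterol synthesis, had a ratio of 0.04 and 6.22, 4.69 and 4.13. These 2 genes were chosen after their values were seen. Their values are those of the strongest peak that met the start cluster, and whether it lay over the CpG-poor start was not examined.

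**Figure D3:**
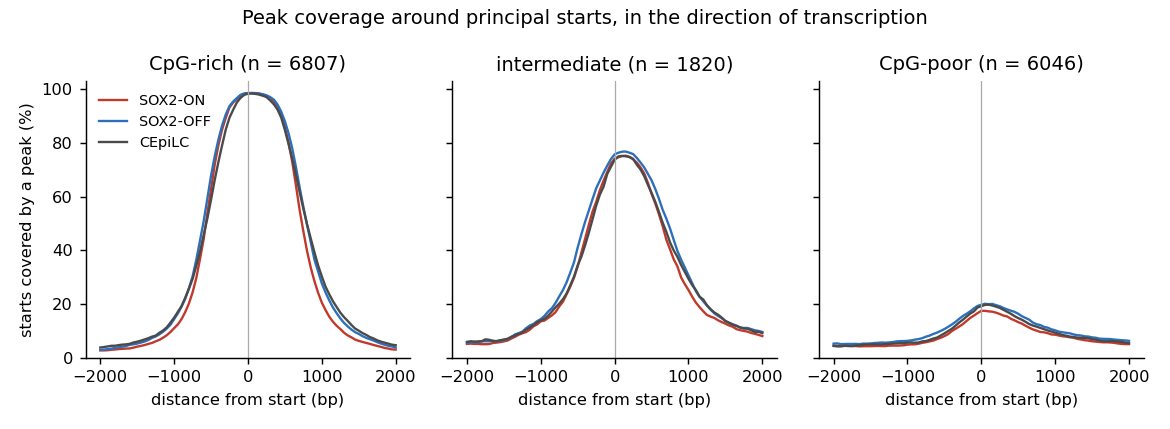
Each panel plots the share of principal starts covered by a peak (%, y axis) at each distance from the start in the direction of transcription (x axis, bp), with 1 line per sample, for CpG-rich, intermediate and CpG-poor starts. At the start base, coverage is 98.5%, 98.5% and 98.3% for CpG-rich starts and 17.5%, 19.7% and 19.2% for CpG-poor starts in SOX2-ON, SOX2-OFF and CEpiLC, and it extends further downstream than upstream.

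Short promoter sequences went with coverage in the same way. In the window from 250 bases before to 50 after principal starts, both strands together, the GC box GGGCGG, bound by SP factors, was present in 63.0% of starts covered in all samples and 4.62% of uncovered starts (43.6% of all 14673 single-gene principal starts). The ETS word CCGGAAG was present in 13.5% and 1.76% (9.51% of all), the NRF1 core GCATGCG in 5.66% and 0.800% (4.04% of all) and the CREB word TGACGTCA in 3.01% and 0.697% (2.21% of all). These words all contain CG, so their share depends on CpG content. Words without CG went the other way or had similar shares. TATAAA on the gene's own strand, beginning 40 to 20 bases before the start, was found in 1.21% of starts covered in all samples and 5.08% of uncovered starts (2.52% of all), and the YY1 word AAGATGG in 5.95% and 6.17% (5.93% of all). Within CpG-rich starts covered in all samples, those with the NRF1 core had a median fold enrichment of 4.97 in SOX2-ON against 4.39 without it, and 3.66 against 3.43 and 3.09 against 2.99 in SOX2-OFF and CEpiLC. The 59 with a TATA box had 3.36 against 4.45, 2.90 against 3.46, and 2.67 against 3.00. A word match is a description of sequence and not a bound site.

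Gene families separated along the same line. Principal starts of genes for the basic machinery of the cell were covered in all samples almost throughout, with 27 of 27 proteasome subunits, 15 of 15 RNA polymerase subunits, 28 of 29 mitochondrial ribosomal proteins, 47 of 50 cytosolic ribosomal proteins, 21 of 22 NADH dehydrogenase subunits and 27 of 28 kinesins, against 9566 of 14668 starts overall (65.2%). All 18 Hox genes with a single-gene start on these chromosomes were covered too, at a median fold enrichment of 2.26, 2.08 and 1.87 in SOX2-ON, SOX2-OFF and CEpiLC, below the 4.79, 3.53 and 3.02 of proteasome genes. At the other end stood the receptors of the nose and tongue. Of 1002 olfactory receptor starts, 17 were covered in all samples and 913 in none. Of 268 vomeronasal receptor starts, 7 were covered in all and 248 in none, and of 17 bitter taste and trace amine receptor starts 16 were covered in none. No CpG-rich start occurred in these 3 families. Defensins, kallikreins, keratins and drug-metabolising cytochromes P450 lay between 11.8% and 20.0%.

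Lists of lineage genes were compared by the coverage of their principal starts. The starts of all 12 usable caudal epiblast and paraxial mesoderm genes, 13 anterior neural genes and 11 formative epiblast genes were covered in all 3 samples, as were 10 of 11 early streak genes and 8 of 9 neuron genes. CpG-rich starts made up 6, 10, 8, 4 and 6 of these. Peaks at such starts were present for the lineage these cells are labelled as and for anterior neural and neuronal genes alike. Lists of markers of distant tissues differed among themselves. Among 10 hepatocyte starts 1 (Apoa1) was covered in all samples and 7, including Alb and Afp, in none. Of 9 haematopoietic starts 3 were covered in all, of 12 starts in the keratinocyte list 2, and 4 and 5 had no peak in any sample. The 2 were Krt8 and Krt18, keratins that are not specific to keratinocytes. Of 11 muscle starts 4 were covered in all and 0 in none, and of 8 endothelial starts 6 were covered in all, 2 of them CpG-rich, and 2 in none. Peaks at the covered muscle starts were weak, with median fold enrichments of 1.72, 1.72 and 1.59 in SOX2-ON, SOX2-OFF and CEpiLC. At haematopoietic starts these medians were 1.61, 1.51 and 1.63, against 3.89, 3.14 and 2.74 over all covered principal starts. These are bulk samples, in which fewer cells with an open site and less opening per cell cannot be told apart. Within the pluripotency list, 8 of 11 starts were covered in all. Klf5 had fold enrichments of 5.14, 4.15 and 3.68, and Pou5f1, which encodes OCT4, had 2.69, 2.37 and 2.14. Tcl1 had a peak in SOX2-ON and CEpiLC, Dppa5a in SOX2-ON and SOX2-OFF, and Nr5a2 had none at its principal start. Sox2 itself had 3.00, 2.52 and 2.46 at its own promoter region, although reads from a transgene copy of its sequence, if any, cannot be told apart there.

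**Figure D4:**
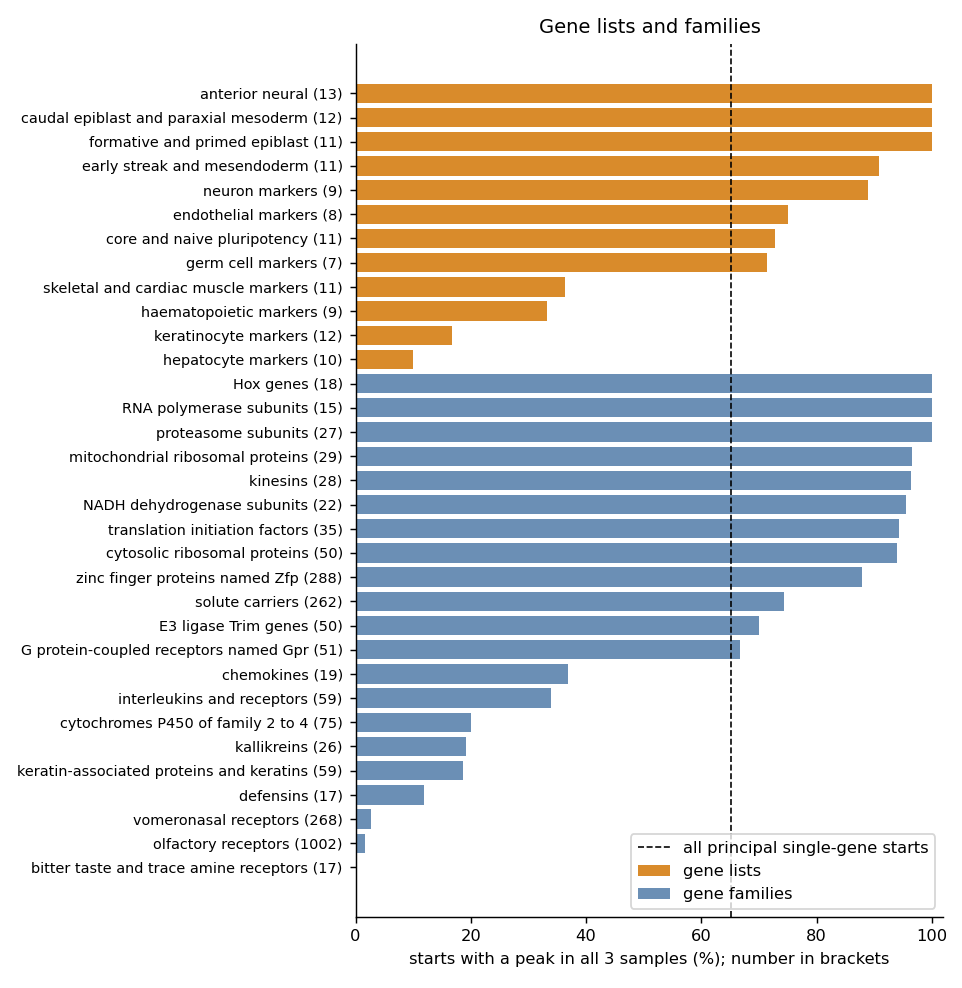
The bars give the share of principal single-gene starts with a peak in all 3 samples (%, x axis) for gene lists (orange) and gene families (blue), with the number of starts in brackets, and the dashed line marks all principal starts at 65.2%. The proteasome, RNA polymerase, Hox, formative, caudal and anterior neural sets reach 100%, and olfactory receptors reach 1.70%.

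A small set of CpG-rich starts had no peak in any sample. Of 6807 CpG-rich principal starts 48 were uncovered, among them Entpd4 and Entpd4b, Tmem254a, Tmem254b and Tmem254c, Zfp955a and Zfp955b, Srp54b, and a run of predicted genes on chromosome 14. In 38 of the 48 (79.2%), at least 50% of the 31-base words in the 500 bp around the start occurred elsewhere in the genome, against 48 of 6733 (0.713%) CpG-rich starts covered in all samples. The part that reads from repeated sequence played was not tested. The 4 uncovered CpG-rich starts with no repeated word at all were Fstl3, an activin-binding protein, Rhbdl1, Rpl39l and S100z. Repeated sequence was less frequent at other uncovered starts, at 20.8% of 3604 CpG-poor starts and 12.5% of the 1163 uncovered olfactory and vomeronasal receptors, counted by gene entry. The counts of these families above are by symbol, and Vmn1r216 and Olfr290 each stand for 2 entries. This measure was added after the uncovered genes were seen.

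Between pairs of samples, promoter peaks were lost or gained much less often than peaks elsewhere. Of the promoter regions with a peak in SOX2-ON, 837 of 12549 (6.67%) had none in SOX2-OFF, against 35.0% of all merged regions, and 899 (7.16%) had none in CEpiLC, against 39.4%. Of those in SOX2-OFF, 981 of 12693 (7.73%) had none in SOX2-ON, against 36.9%, and 803 (6.33%) had none in CEpiLC, against 33.2%. Of those in CEpiLC, 1402 of 13052 (10.7%) had none in SOX2-ON, against 45.0%, and 1162 (8.90%) had none in SOX2-OFF, against 37.5%. At start clusters, the order of each sample of the engineered line and CEpiLC in these losses turned when only peaks with a −log10 q of 5 were kept. Then 7.39% of SOX2-ON clusters lacked a CEpiLC peak and 2.00% the reverse, against 6.24% and 9.33% for the full lists, and for SOX2-OFF the values were 7.34% and 0.954% against 5.93% and 7.54%. Regions without a peak in the other sample were weak as a rule. Where all samples shared a region, 90.2% of SOX2-ON peaks reached a −log10 q of 5, against 18.0% of the 599 in SOX2-ON only, 2.78% of the 503 in SOX2-OFF only and 0.974% of the 924 in CEpiLC only. The same shares over all merged regions of 1 sample were 22.4%, 3.72% and 0.699%. They also lay away from the principal start more often: 84.9% of shared regions were within 1 kb of it, against 38.2%, 38.4% and 47.2% of the regions of 1 sample.

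Of the 599 promoter regions in SOX2-ON only, 108 reached a −log10 q of 5, compared with 14 in SOX2-OFF only and 9 in CEpiLC only. The −log10 q of a peak rises with the depth of its library, which was not given, and the share of 18.0% was below the 22.4% of all regions in SOX2-ON only, so the count is not particular to promoters. By rank, 25 were within the strongest 20000 peaks of their list (4.17%, against 6.20% of all SOX2-ON only regions). The counts were 2 for SOX2-OFF only (0.398%, background 0.223%) and 7 for CEpiLC only (0.758%, background 0.405%). The 108 belonged to 108 genes and 46 lay within 1 kb of the principal start. The strongest was Mobp, which encodes a myelin protein of oligodendrocytes. Its region had a fold enrichment of 3.99 and a −log10 p of 83.7 in SOX2-ON over the principal start, and no peak in SOX2-OFF or CEpiLC. Macf1, a linker of microtubules and actin, had 4.02 at an alternative start. Eif4e1b, a germline relative of the cap-binding factor eIF4E, had 3.40 at 98 bp from its principal start, and F13b, a subunit of coagulation factor XIII, had 3.37. Gm3591, with 4.58, lay in repeated sequence throughout its start window.

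The SOX word CATTGT was counted on both strands in the sequence of the regions themselves. In the 108 strong SOX2-ON only regions it occurred 1.21 times per kb and 56.5% of regions held it, although their median width was 610 bp. In the 89 regions of SOX2-OFF and CEpiLC that reached the same −log10 q in either sample it occurred 0.353 times per kb. Of these, 24.7% held it, at a median width of 828 bp. The sets called strong here share this limit and were not matched for strength. In the 10652 strong shared regions it occurred 0.299 times per kb and 37.1% held it, at a median width of 1590 bp. The other classes with a SOX2-ON peak lay between, with 1.10 per kb and 54.8% in the 31 strong regions of SOX2-ON and CEpiLC (GC 50.6%, median width 820 bp) and 0.615 per kb and 45.6% in the 79 of SOX2-ON and SOX2-OFF (GC 50.1%, 1000 bp). Without the limit on q, CATTGT occurred 0.747 times per kb in all 599 SOX2-ON only regions, 0.502 in the 478 of SOX2-OFF and CEpiLC and 0.31 in the 11412 shared. The shares of regions holding it were then 27.7%, 34.7% and 37.8%, at median widths of 383, 850 and 1580 bp. In the strong sets base content moved with the word, since GC was 45.6% in the SOX2-ON only set, 50.4% in that of SOX2-OFF and CEpiLC and 57.5% in the shared set. The GATA word AGATAA, also free of CG, stood at 0.998, 0.411 and 0.295 per kb in these 3 sets, and TGTTAC, the SOX word read backwards, at 0.499, 0.364 and 0.205. The part of base content in the difference was not tested. The promoter of Mobp held a related word, CTTTGT, 6 times in the 250 bases before its RefSeq start, shown here in capitals (chr9:120149492-120149741, plus strand, GRCm38.p6).
Mobp: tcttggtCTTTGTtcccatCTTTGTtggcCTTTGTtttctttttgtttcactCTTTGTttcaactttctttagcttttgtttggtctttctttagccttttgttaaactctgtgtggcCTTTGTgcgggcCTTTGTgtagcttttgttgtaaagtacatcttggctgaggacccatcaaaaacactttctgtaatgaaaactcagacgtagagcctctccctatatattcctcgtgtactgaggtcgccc
CTTTGT was chosen after this sequence was seen. Of 14673 principal starts 17.4% held it at least 1 time in their 300-base window, on either strand, and 0.198% held it 3 times or more. For CATTGT these shares were 10.6% and 0.0613%.

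The other partial classes were named by the weaker of their 2 peaks. Among regions that lacked a peak only in SOX2-ON, the values are given for SOX2-OFF and then CEpiLC. Scn7a, a sodium channel gene, had 2.51 and 2.93, Litaf had 2.04 and 3.17 at an alternative start, and Tfap2a, a regulator of surface ectoderm and neural crest, had 1.74 and 2.16 at an alternative start. Disp1, needed for release of Hedgehog ligands, had 2.70 and 2.22 at an alternative start, and Myom1, a protein of the muscle sarcomere, had 2.67 and 2.28. Among regions of the engineered line that lacked a peak in the wild type, D1Pas1, a testis RNA helicase, had 2.56 in SOX2-ON and 2.33 in SOX2-OFF over its principal start, Olfr641 had 2.69 and 2.51 and Arhgap9 had 2.23 and 1.87. SOX2-OFF only was led by Macc1 with 2.42, and CEpiLC only by Neb, the muscle gene nebulin, with 2.64, both at alternative starts. In SOX2-ON and CEpiLC, Prr19 had 2.00 and 1.80. Judged by SOX2-ON alone, 2 further regions without a CEpiLC peak had a −log10 p above that of Mobp, and they were picked out after their values were seen. Tnnt3, the fast skeletal troponin T gene (region chr7:142498573-142500849), had a fold enrichment of 3.73 and a −log10 p of 92.0 in SOX2-ON, against 2.00 and 11.2 in SOX2-OFF. The SOX2-ON peak did not reach the 1 kb around the principal start of Tnnt3, and the SOX2-OFF peak did. Slc39a10, a zinc importer, had 4.05 and 86.7 against 1.97 and 10.6.

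At the 11412 promoter regions shared by all samples, levels kept nearly the same order from sample to sample. Spearman's rho of fold enrichment was 0.928 between SOX2-ON and SOX2-OFF, 0.886 between SOX2-ON and CEpiLC and 0.943 between SOX2-OFF and CEpiLC, against 0.711, 0.627 and 0.766 over the 33565 other shared regions. The range of levels also differed. In SOX2-ON the quartiles were 2.23 and 4.74 over all promoter regions with a peak, and 1.56 and 2.08 over regions without a coding start. The part of this range in the gap in rho was not tested. To compare levels, fold enrichment was put on 1 distribution over the 44977 regions shared by all samples (quantile normalisation of log2 values), and differences of 1.5-fold or more were counted. Higher in SOX2-ON than SOX2-OFF were 27 promoter regions (0.237%, background 1.64%) and lower 34 (0.298%, background 1.10%). Higher in SOX2-ON than CEpiLC were 82 (0.719%, background 2.36%) and lower 101 (0.885%, background 1.66%). Higher in SOX2-OFF than CEpiLC were 10 (0.0876%, background 0.640%) and lower 27 (0.237%, background 0.574%). All 6 shares were below those of the shared regions as a whole. The split between directions depended on this scaling. With each sample centred on its median instead, promoter regions as a whole stood 0.34 log2 units higher in SOX2-ON than CEpiLC and 0.22 higher than SOX2-OFF, and 1886 were 1.5-fold higher in SOX2-ON than CEpiLC (16.5%, background 8.41%) and 26 lower (0.228%, background 0.807%). Against SOX2-OFF, 235 were higher in SOX2-ON (2.06%, background 3.31%) and 25 lower (0.219%, background 1.15%). Between SOX2-OFF and CEpiLC, 21 were then higher in SOX2-OFF (0.184%, background 0.536%) and 8 lower (0.0701%, background 0.198%). Promoter regions higher in SOX2-ON than CEpiLC thus exceeded the background under centring and fell below it under quantile normalisation, and the other 5 shares were below it under both.

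Msgn1 stood out in the caudal list. Its CpG-poor promoter (region chr12:11208225-11210525), shown above, had a fold enrichment of 1.53, 2.62 and 2.22 in SOX2-ON, SOX2-OFF and CEpiLC, and the normalised log2 difference was −0.80 between SOX2-ON and SOX2-OFF and −0.63 between SOX2-ON and CEpiLC. SOX2-ON was thus the low sample, under centring too (−0.84 and −0.63). The SOX2-ON peak was weakly called, with a −log10 p of 3.02 and rank 76072 of 85388. The lowest SOX2-ON −log10 p over promoter regions was 2.61. In SOX2-OFF and CEpiLC the −log10 p of the Msgn1 peak was 23.6 and 8.94. Msgn1 was the only 1 of the 12 members of that list past 1.5-fold in either comparison. The list's median differences were −0.07 and −0.03, against 0.02 for all promoter regions over principal starts in both comparisons. Under centring the list's medians lay 0.24 and 0.30 log2 units below the median of all promoter regions, with 1 of 12 members above it in each comparison. The lists of neuron, muscle and endothelial genes also lay below it, at −0.21 and −0.25, −0.24 and −0.24, and −0.21 and −0.28. In these lists 0 of 8, 0 of 4 and 1 of 6 members were above it in each comparison. The germ cell list lay above it, by 0.14 in both, with 4 of 5 members. The shift was thus not particular to caudal genes. T, the mesoderm regulator Brachyury, had 2.16, 2.38 and 2.07, Cdx2 had 2.48, 2.10 and 2.20, and Tbx6, a paraxial mesoderm regulator, had 1.96, 1.65 and 1.62. The strongest SOX2-ON peak that met the principal start cluster of Cdx2 had 2.21. Under quantile normalisation none of the pluripotency, formative, early streak or anterior neural promoters passed 1.5-fold in any comparison, and under centring Gata6 alone did (0.60 for SOX2-ON against SOX2-OFF). Within the early streak list 8 of 11 were above 0 in SOX2-ON against SOX2-OFF, with a median of 0.25, beside 5216 of 9616 promoter regions over principal starts. Under centring the list lay 0.07 above the median of promoter regions in that comparison, with 7 of 11 above it, and at −0.02 and −0.13 relative to it for SOX2-ON and SOX2-OFF against CEpiLC, with 5 and 0 of 11 above it. Nodal, a TGFβ ligand, had 2.97, 1.92 and 2.03 and Gata6, an endoderm regulator, 3.19, 2.02 and 2.03. For Nodal these are the strongest peaks anywhere in its merged region. The strongest peaks that met its principal start cluster had 2.10, 1.92 and 1.86, so the higher SOX2-ON value lay mostly outside that cluster.

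Rnf17, a Tudor-domain protein of spermatids, held the largest gain of the engineered line over CEpiLC among the named regions. Its region (chr14:56402125-56403448, where 25.5% of the words of the start window occur elsewhere in the genome) had a fold enrichment of 7.11, 5.10 and 2.17 in SOX2-ON, SOX2-OFF and CEpiLC. Both samples of the engineered line were high and the wild-type sample was low, by 2.51-fold and 2.32-fold after normalisation. Ddx4 had 4.75, 3.27 and 1.83, and log2 differences of 1.07 and 0.88 from CEpiLC. Mael, which acts in piRNA silencing of transposons, had 4.19, 2.59 and 1.87, with differences of 0.87 and 0.49. Ddx4 and Mael are in the germ cell list, and Rnf17 is not. The other members of that list with a promoter region had smaller differences or no CEpiLC peak. Sycp1, of the synaptonemal complex, had 2.74, 2.38 and 1.96, with differences of 0.30 and 0.27. Zp3, an egg coat protein, had 2.19 and 1.55 in the engineered line and no CEpiLC peak. Dazl, an RNA-binding protein of germ cells, had 5.07, 3.80 and 3.40, with 0.01 and −0.04, and Sycp3, of the same complex as Sycp1, had 2.66, 2.10 and 2.36, with −0.11 and −0.29. Of the 5 list members shared by all samples 2 were 1.5-fold higher in SOX2-ON than CEpiLC and 0 lower, against 59 higher and 84 lower among 9616 promoter regions over principal starts. Under centring, Rnf17, Ddx4 and Mael were higher in SOX2-ON than CEpiLC by 1.63, 1.29 and 1.08 log2 units, above the 0.34 of promoters in general. The SOX2-OFF differences from CEpiLC had the same direction, and line, doxycycline and SOX2 state cannot be told apart in the comparison with CEpiLC.

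**Figure D5:**
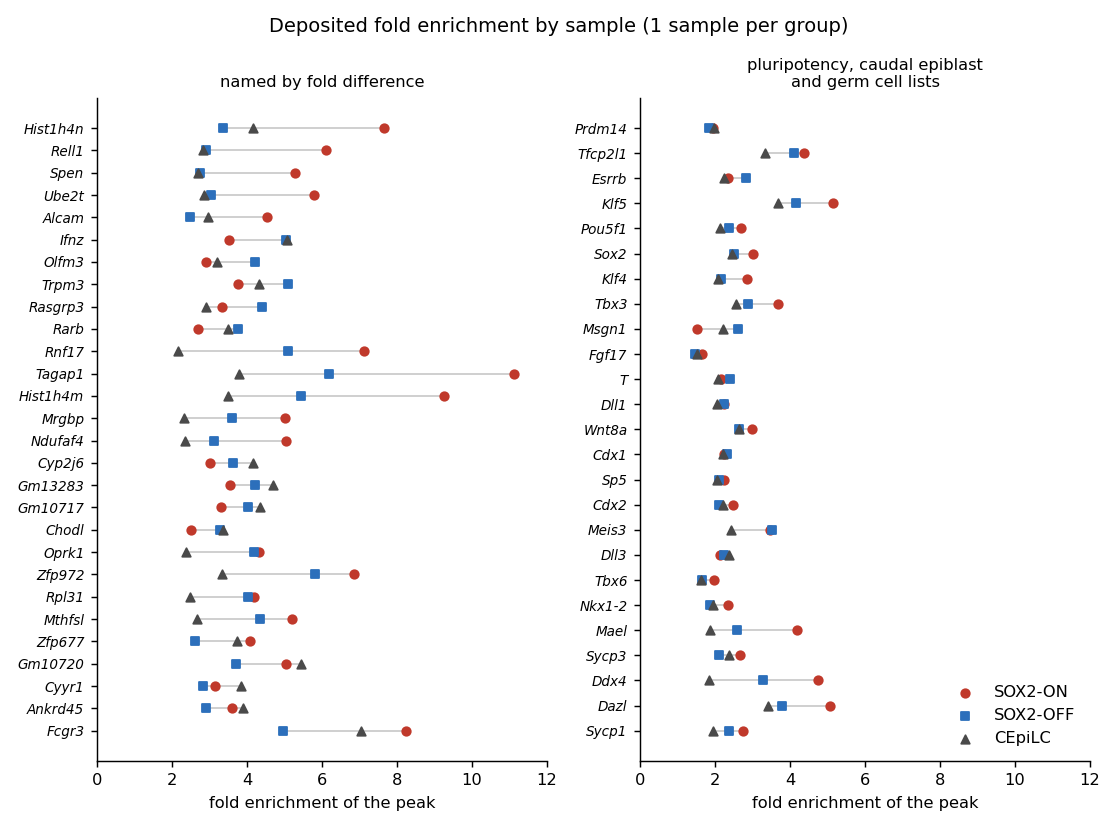
Points give the deposited fold enrichment (x axis) of each promoter region in SOX2-ON (red circles), SOX2-OFF (blue squares) and CEpiLC (grey triangles), 1 sample each, for regions named by their normalised difference (left) and for 3 gene lists (right). Rnf17 runs from 2.17 in CEpiLC to 7.11 in SOX2-ON, and Msgn1 is lowest in SOX2-ON at 1.53.

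The remaining named differences concerned genes of varied function. They were ranked by size, and Ube2t and Alcam were just under 1.5-fold (0.58 and 0.55 log2 units) after quantile normalisation. Higher in SOX2-ON than SOX2-OFF were Rell1, with 6.12, 2.92 and 2.82, Spen, a corepressor in X inactivation and Notch signalling, with 5.28, 2.74 and 2.68, Ube2t, of DNA crosslink repair, with 5.80, 3.05 and 2.86, and the adhesion molecule Alcam, with 4.52, 2.48 and 2.96. In the first 3 SOX2-OFF and CEpiLC had similar levels and SOX2-ON the high one. Higher in SOX2-OFF than SOX2-ON were Olfm3, with 2.91, 4.22 and 3.21, the cation channel Trpm3, with 3.75, 5.10 and 4.33, Rasgrp3, with 3.34, 4.41 and 2.90, and Rarb, the retinoic acid receptor β, with 2.69, 3.75 and 3.48. Mrgbp and Ndufaf4 were low in CEpiLC, with 5.03, 3.61 and 2.32 and with 5.03, 3.13 and 2.35. Cyp2j6 and Chodl were highest in CEpiLC, with 3.02, 3.63 and 4.16 and with 2.50, 3.28 and 3.37. Between SOX2-OFF and CEpiLC, the κ-opioid receptor gene Oprk1 was higher in SOX2-OFF, at 4.19 against 2.37, and Cyyr1 lower, at 2.83 against 3.83. Under centring Trpm3, Rasgrp3 and Rarb (−0.51, −0.46 and −0.54 log2 units, SOX2-ON minus SOX2-OFF), Cyp2j6 and Chodl (−0.55 and −0.52, SOX2-ON minus CEpiLC) and Cyyr1 (−0.46, SOX2-OFF minus CEpiLC) fell short of 1.5-fold with their direction kept. Tagap1, Ifnz and Gm13283 were also named, and 85.1%, 97.9% and 93.6% of the words in their start windows occur elsewhere in the genome, so their values are uncertain. Hist1h4n and Hist1h4m, also named, are uncertain too, as members of a histone H4 family with near-identical coding sequences.

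Most genes with a promoter region had 1, and 2144 had more. Accessibility was measured here, and use of a promoter was not. Of the 11414 genes 9270 had 1 region, 1538 had 2, 410 had 3 and 196 had 4 or more. Among the 2144 with several, 1229 (57.3%) had a region in all samples and another that was not. Pde4d, a cAMP phosphodiesterase with many alternative promoters, had 8 regions, 7 of them in all samples, with fold enrichments up to 4.39 in SOX2-ON. Arap1 also had 8, with 6 in all samples, and R3hdm2 had 8, with 2 in all samples. Ank2, Dab2ip and Tcf4 had 7 each, with 5, 3 and 4 in all samples. Dnmt3a, the de novo DNA methyltransferase gene, had 6, of which the first had 3.01, 2.26 and 2.04, another 2.60, 2.59 and 2.18, and the other 4 were weak and in 2 samples each, with levels from 1.47 to 1.75. Long non-coding RNA starts lay within 1 kb of 10.5% of promoter regions and 12.5% of the shared ones. In every class of 1 or 2 samples the share was between 2.78% and 3.78%. Regions of those classes were narrower, with median widths from 334 to 874 bp against 1580 bp. The part of width was not tested.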

How the data were processed

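The authors ran the nf-core/atacseq pipeline (Trim Galore, then BWA on mm10) and called broad peaks per sample with MACS2. The deposited fold enrichment is a ratio of pileup to local background, and the deposited −log10 p and −log10 q values come from the same caller, with every q at or below 0.1. The deposited score repeats −log10 q and was not used. All grow with depth, and read totals were not given, so depth is unknown.

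Peaks were merged with bedtools 2.31.1, and a region took, per sample, the value of its peak with the highest −log10 p. Shares have Wilson 95% intervals. With 1 sample per group there was no test. Fold differences used quantile-normalised log2 fold enrichment and a limit of 1.5-fold. The code was tested on simulated data.

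The members and lists were chosen with earlier results of these data known. Named genes were the 5 leading regions by −log10 p per sample and per partial class, the 5 largest differences per direction among regions above the members' median level, the 5 genes with most regions, the 3 widest regions and the listed genes. Chosen after values were seen were the distance bins, repeated words, CTTTGT, a wider germline list and the strong CpG-poor genes. Of 14668 principal starts, 11092 matched a RefSeq promoter. Alternatives were a stricter q, equal list lengths, narrower windows, all autosomes and other scalings.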

Additional observations from a re-analysis of the deposited data

How the results depend on the processing

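No paired analysis was possible because there was only 1 sample per group, and none could be left out. The share of promoter regions in all 3 samples (79.0%) was 88.1% at a −log10 q of 5, 86.4% with the strongest 50000 peaks of each list, 83.0% with 500 bp windows, 84.7% with the start base alone and 76.5% on all autosomes. Uncovered start clusters (36.6%) were 50.1%, 45.2%, 40.4%, 45.7% and 33.3% in the same order. CpG-poor clusters covered in all samples (17.8%) were 7.87%, 11.6%, 14.5%, 10.6% and 18.8%, and CpG-rich ones (98.6%) were 96.5% at the stricter q and 97.7% at the start base. Start clusters covered in SOX2-ON and not in SOX2-OFF (5.99%) were 3.36%, 3.60% and 4.11% at the stricter q, with equal lists and at the start base, and in SOX2-OFF and not SOX2-ON (7.49%) 4.33%, 5.78% and 5.97%. In SOX2-ON and not CEpiLC (6.24%) they were 7.39%, 4.49% and 5.60%, and in CEpiLC and not SOX2-ON (9.33%) 2.00%, 7.02% and 6.27%. In SOX2-OFF and not CEpiLC (5.93%) they were 7.34% and 4.28% with the first 2 settings, and in CEpiLC and not SOX2-OFF (7.54%) 0.954%, 4.66% and 4.58%. The order of SOX2-ON and CEpiLC in these losses, and that of SOX2-OFF and CEpiLC, thus turned at the stricter q. Promoter regions past 1.5-fold numbered 260 between SOX2-ON and SOX2-OFF and 1912 between SOX2-ON and CEpiLC under median centring, against 61 and 183 under quantile normalisation. The cause was not tested. With length-weighted values the counts past 1.5-fold were 54, 181 and 33, within 1.5 times those of the main scaling.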

Other observations

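A wider list of 26 germline genes, added after the values of Rnf17 and Ddx4 were seen and therefore no independent evidence, had 22 promoter regions, 21 of them in all samples. Of these 21, 5 were 1.5-fold higher in SOX2-ON than CEpiLC and 0 lower, and 17 lay above 0, with a median log2 difference of 0.26, beside 59 higher, 84 lower and 5228 above 0 of 9616 promoter regions over principal starts. Beyond Rnf17, Ddx4 and Mael these were Piwil2, a piRNA-binding protein, with fold enrichments of 3.37, 2.10 and 1.82 in SOX2-ON, SOX2-OFF and CEpiLC, and Slc25a31, the testis ADP/ATP carrier, with a log2 difference of 0.65. Between SOX2-OFF and CEpiLC 2 were higher and 0 lower, beside 8 and 20 of the 9616. The shift of the whole list depended on the scaling. Under median centring its median lay 0.01 log2 units below that of all promoter regions for SOX2-ON against CEpiLC, with 10 of 21 above it.

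The widest promoter regions were 1700001F09Rik with 15005 bp, Zfp990 with 10316 bp and Gm3115 with 9458 bp, all in all samples. Their start windows consisted by 100%, 66% and 93.6% of 31-base words found elsewhere in the genome.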
